A study of Homo sapiens with 6 samples.

Results

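The Eph receptors and ephrins of MCF10A cells were followed across plating density. MCF10A is an established human cell line of breast epithelium that is not tumorigenic. Of 10 genes listed by symbol, 9 were measured: the receptors EPHA1, EPHA2, EPHA4, EPHB3 and EPHB4 and the ligands EFNA1, EFNA4, EFNB1 and EFNB2, with 18 probe sets among 19775 genes in all. EPHB2 was not analysed here, since no probe set carried that symbol in the annotation used. Cells were seeded at 50K, 100K, 200K, 400K, 600K or 800K per 35 mm dish, and RNA was taken after 24 h. All 6 groups grew in the same DMEM/F12 medium with insulin at 10 μg/ml, EGF at 20 ng/ml, hydrocortisone at 0.5 μg/ml, cholera toxin at 100 ng/ml, gentamicin at 100 μg/ml and horse serum at 5%. The array was the Affymetrix HG-U133 Plus 2, with 1 array and no replicate at any density, and the labels do not say whether several dishes were pooled.

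Eph receptors are receptor tyrosine kinases whose ligands, the ephrins, are held on the surface of the neighbouring cell, so that signalling needs contact between cells. Ephrins of the A class are anchored by a lipid and mostly bind EphA receptors, while ephrins of the B class span the membrane and mostly bind EphB receptors. Binding signals forward into the cell with the receptor and in reverse into the cell with the ephrin, and in epithelia it is known for setting boundaries between cell populations and for restraining or promoting movement.

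Each deposited value compares a probe set with its own value on the 50K array, as a linear ratio. These ratios give changes but no level, so genes cannot be ranked by abundance, and whether markers of breast epithelium are present cannot be read from them. A gene is the mean log2 ratio of its probe sets, and its slope is the change in that log2 ratio per doubling of the cells plated. Errors after ± are standard errors of the fit to the 6 arrays, and the adjusted p-values come from limma, adjusted over all genes by the Benjamini-Hochberg method, with 0.05 as the threshold. The median ratio over all non-control probe sets was 1.013 to 1.036 on the other 5 arrays. In RNA of a whole dish, fewer cells that express a gene and less RNA of it per cell cannot be told apart.

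Both directions occurred among the members. EPHB3 and EFNA1 rose to about 3 times their 50K level, EFNB1 and EPHB4 rose by less, and EPHA2 and EFNB2 fell below 0.5 of it. Of the 9 members, 4 rose, 2 fell and 3 (EPHA1, EFNA4 and EPHA4) did not pass the test; without the 50K array 2 rose, as EFNB1 and EPHB4 were lost. Over all genes, 8.93% rose and 12.4% fell, and 6.56% rose without the 50K array. The median slope of the 9 members was 0.08, against 0.00 for all genes. At 800K, EPHB3 and EFNA1 were 2-fold or more above 50K, as were 2.25% of all genes, and EPHA2 and EFNB2 were 2-fold or more below it, as were 2.69% of all genes.

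**Figure D1:**
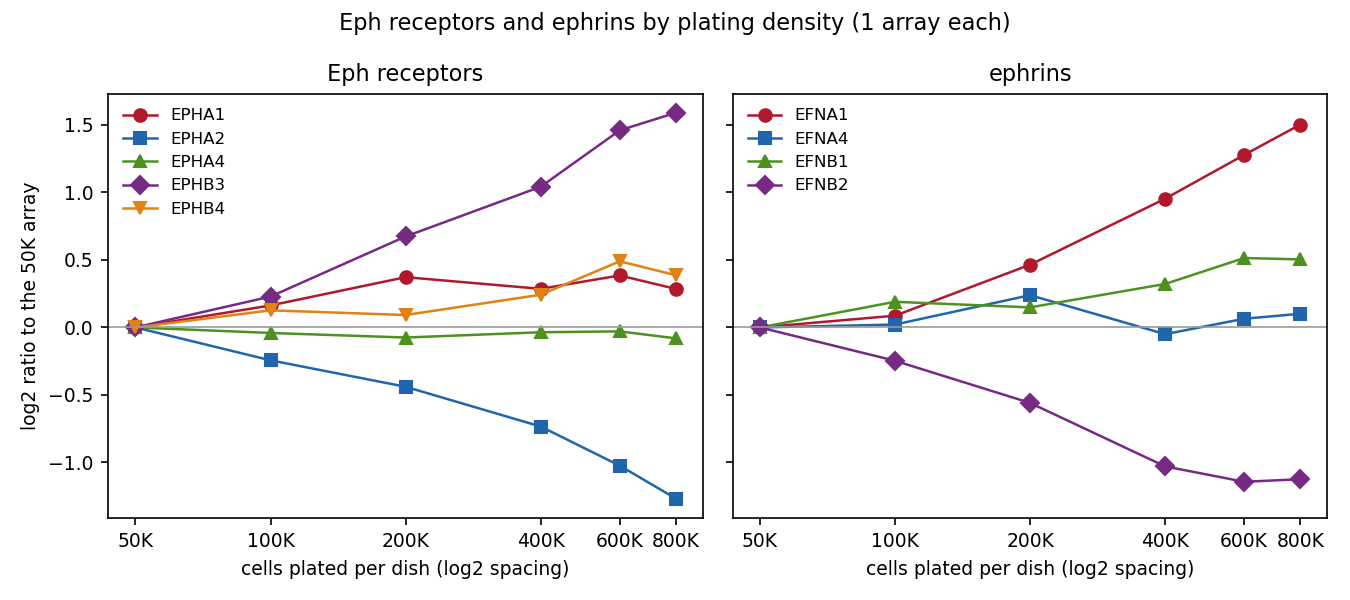
The log2 ratio to the 50K array (vertical axis) is plotted against the cells plated per dish, 50K to 800K on a log2 spacing, for 5 Eph receptors (left) and 4 ephrins (right), with 1 array per point. EPHB3 and EFNA1 end at 1.59 and 1.50 log2 units, and EPHA2 and EFNB2 at −1.27 and −1.12.

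The 250 bases upstream of the start of the 4 members with the largest slopes are shown because these are the genes that moved most, 2 up and 2 down. They are RefSeq sequences of build GRCh38.p14, written 5′ to 3′ on the strand of the gene. Capitals mark matches, on either strand, to the GC box letters GGGCGG, the TEAD letters GGAATG, the AP-1 letters TGANTCA and the TATA box letters TATAAA. A match on the other strand appears here as its reverse complement.
EPHB3, chr3:184561535-184561784, plus strand: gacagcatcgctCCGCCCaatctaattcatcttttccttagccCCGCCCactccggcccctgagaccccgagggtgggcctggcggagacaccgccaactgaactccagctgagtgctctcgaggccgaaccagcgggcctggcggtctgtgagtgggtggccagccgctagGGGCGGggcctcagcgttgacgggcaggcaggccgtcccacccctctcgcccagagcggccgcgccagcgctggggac
EFNA1, chr1:155127626-155127875, plus strand: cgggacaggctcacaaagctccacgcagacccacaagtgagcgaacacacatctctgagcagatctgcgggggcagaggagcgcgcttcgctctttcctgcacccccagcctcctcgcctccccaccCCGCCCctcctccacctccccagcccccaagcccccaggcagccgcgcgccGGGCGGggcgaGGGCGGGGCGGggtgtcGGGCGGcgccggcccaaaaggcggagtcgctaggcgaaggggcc
EPHA2, chr1:16156070-16156319, minus strand: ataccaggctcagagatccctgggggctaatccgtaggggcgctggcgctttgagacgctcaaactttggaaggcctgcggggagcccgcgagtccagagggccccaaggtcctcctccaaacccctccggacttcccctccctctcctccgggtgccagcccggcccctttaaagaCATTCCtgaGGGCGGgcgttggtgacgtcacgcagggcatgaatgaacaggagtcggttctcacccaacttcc
EFNB2, chr13:106535663-106535912, minus strand: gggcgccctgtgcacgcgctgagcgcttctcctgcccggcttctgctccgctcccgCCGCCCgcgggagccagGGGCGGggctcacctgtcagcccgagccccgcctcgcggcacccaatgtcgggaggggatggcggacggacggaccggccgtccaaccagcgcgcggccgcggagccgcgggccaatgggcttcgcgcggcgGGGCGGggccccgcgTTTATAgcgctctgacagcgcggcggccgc

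GC box letters were found upstream of all 4 genes, with 3 matches for EPHB3, 5 for EFNA1 (of which 2 overlap by 1 base), 1 for EPHA2 and 3 for EFNB2. They were also found in the windows of the other 5 members, and in 42.6% of all 34796 RefSeq windows of this length. EPHA2 had 1 match to the TEAD letters, on the other strand, between 73 and 68 bases upstream, against 11.9% of all windows. EFNB2 had 1 match to the TATA box letters, also on the other strand, between 30 and 25 bases upstream, against 10.8% of all windows. The AP-1 letters, held by 6.59% of all windows, were in none of the 4. The EFNB2 window was 78.4% G and C with 40 CpG pairs, and 97.8% of all windows had fewer. The windows of EFNA1, EPHB3 and EPHA2 held 24, 21 and 15 CpG pairs, against a median of 11. Matches are given as letters in these windows only.

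Of the A-class receptors among the members, EPHA2 fell. EPHA2, a receptor abundant in many epithelia and in breast cancers, is a main receptor of ephrin-A1. Its ratio, set to 1 at 50K, was 0.845 at 100K, 0.737 at 200K, 0.601 at 400K, 0.492 at 600K and finally 0.415 at 800K. Each array lay below the array of the next lower density, an order seen in 3.53% of all genes. The slope was −0.30 ± 0.03 (adjusted p = 0.00186), the 301st steepest fall of 19775 genes. The log2 ratio fell by 0.44 between 50K and 200K, by 0.29 between 200K and 400K and by 0.53 between 400K and 800K. The first span holds more doublings of the cells plated than each of the others, so these steps are not per doubling. The call held with each array left out in turn (slopes between −0.33 and −0.27, adjusted p up to 0.0127).

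EPHA1 and EPHA4 did not pass the test. EPHA1, an epithelial receptor with affinity for ephrin-A1, had a ratio of 1 at 50K, followed by 1.12 at 100K, 1.29 at 200K, 1.22 at 400K, 1.31 at 600K and finally 1.22 at 800K (slope 0.08 ± 0.03, adjusted p = 0.0905). All 5 later arrays were above 50K, with no further order from 200K on. Its adjusted p was 0.0451 without the 200K array. The 3 probe sets of EPHA1 disagreed. Probe set 205977_s_at reached 1.57 at 800K with a slope of 0.19 ± 0.02 (adjusted p = 0.00951 over all probe sets), while 215804_at and 241482_at had slopes of 0.02 ± 0.03 and 0.01 ± 0.06. Transcripts of the antisense gene EPHA1-AS1 kept ratios between 0.972 and 1.06.

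EPHA4, known for binding ephrins of both classes, stayed between 0.945 and 1.00 over the 6 arrays (slope −0.01 ± 0.01, adjusted p = 0.669). Of its 5 probe sets, 206114_at stood at 0.756 on the 100K array and between 0.727 and 0.746 on the arrays from 200K to 800K, with an adjusted p of 0.174. The other 4 probe sets lay between 0.997 and 1.13 on all arrays.

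Of the B-class receptors among the members, EPHB3 and EPHB4 rose. EPHB3, known from the intestine for keeping cells of the crypt in place, had a ratio of 1 at 50K, followed by 1.17 at 100K, 1.60 at 200K, 2.06 at 400K, 2.75 at 600K and finally 3.01 at 800K. It was higher on each array than on the array of the next lower density, an order seen in 2.93% of all genes. The slope of 0.41 ± 0.03 (adjusted p = 0.000745) was the 169th steepest rise of all genes, and the call held with each array left out in turn (adjusted p up to 0.00655). Its 2 probe sets differed in size but not in direction. Probe set 1438_at reached 3.98 and 204600_at 2.28 at 800K, with slopes of 0.51 ± 0.03 and 0.31 ± 0.02.

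EPHB4, the preferred receptor of ephrin-B2 and best known from veins, changed less. Its ratio, set to 1 at 50K, was 1.09 at 100K, 1.07 at 200K, 1.18 at 400K, 1.40 at 600K and finally 1.31 at 800K (slope 0.11 ± 0.02, adjusted p = 0.0247). The arrays at 600K and 800K were the highest. The call was lost without the 50K, 100K, 600K or 800K array (adjusted p 0.0986, 0.0591, 0.0507 and 0.0757). Probe set 202894_at had a slope of 0.15 ± 0.02 (adjusted p = 0.0123), and 216680_s_at had one of 0.07 ± 0.04 (adjusted p = 0.357).

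**Figure D2:**
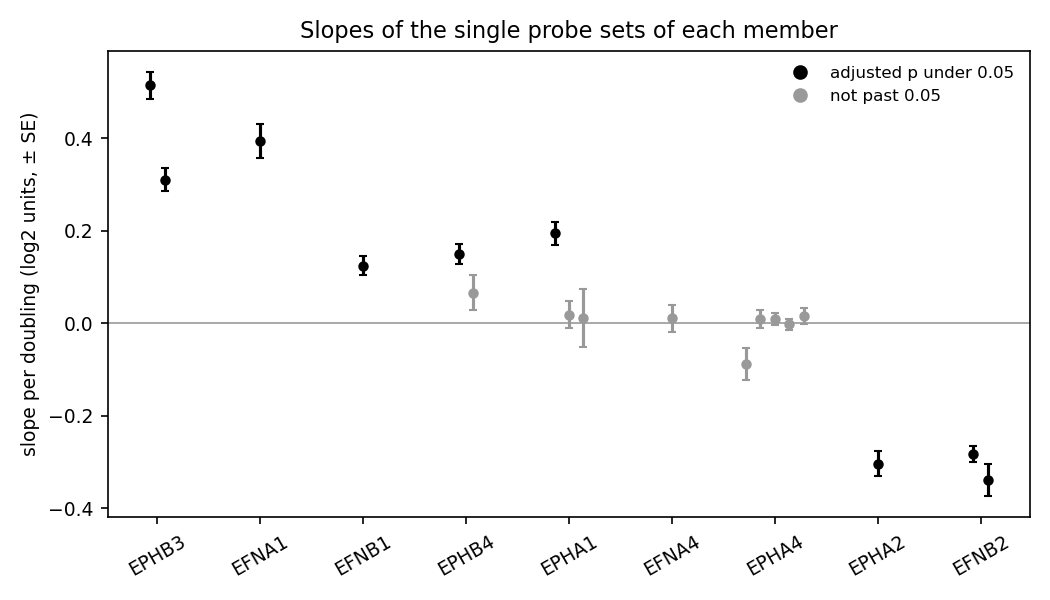
Each point is the density slope of 1 probe set (log2 units per doubling of the cells plated, ± SE), grouped by member from the highest to the lowest gene slope, and black points passed an adjusted p of 0.05 over all probe sets. Of the 18 probe sets, 6 rose and 3 fell, and EPHA1 and EPHB4 each had probe sets on both sides of the threshold.

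Among single probe sets, 6 of the 18 rose and 3 fell, against 5.94% and 7.96% of all 54613 probe sets tested. For EFNB2 both probe sets fell, and for EPHB3 both rose. EPHA2, EFNA1, EFNA4 and EFNB1 were each measured by 1 probe set.

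Of the A-class ligands among the members, EFNA1 rose and EFNA4 did not pass. EFNA1 encodes ephrin-A1, the ligand that binds EPHA2 and is known to lead to its uptake and degradation. Its ratio, set to 1 at 50K, was 1.06 at 100K, 1.38 at 200K, 1.94 at 400K, 2.43 at 600K and finally 2.83 at 800K. EFNA1, too, was higher on each array than on the array of the next lower density. The slope was 0.39 ± 0.04 (adjusted p = 0.00217), the 190th steepest rise of all genes, and the call held with each array left out in turn (adjusted p up to 0.0139). Most of the change lay above 100K: the log2 ratio reached 0.09 at 100K, 0.46 at 200K, then 0.95 at 400K and finally 1.50 at 800K.

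EFNA4, another ephrin of the A class, had a ratio of 1 at 50K, followed by 1.01 at 100K, 1.18 at 200K, 0.966 at 400K, 1.05 at 600K and finally 1.07 at 800K, with no order by density (slope 0.01 ± 0.03, adjusted p = 0.868). In the RefSeq order of protein-coding genes, EFNA4, EFNA3 and EFNA1 follow one another on chromosome 1. Their starts in the GRCh38.p14 promoter table are 15.1 kb apart between EFNA4 and EFNA3 and 49.0 kb apart between EFNA3 and EFNA1. Between them, EFNA3 had a ratio of 1 at 50K, followed by 0.924 at 100K, 1.17 at 200K, 1.18 at 400K, 1.76 at 600K and finally 1.64 at 800K. EFNA3 rose with a slope of 0.21 ± 0.05 (adjusted p = 0.0270), a call that was lost without the 100K, 600K or 800K array (adjusted p 0.0802, 0.0650 and 0.0992). RefSeq also lists a gene named EFNA4-EFNA3 that spans both, and whether the probe sets of these genes read it was not tested.

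EFNB2 and EFNB1, both B-class ligands, went opposite ways. EFNB2 encodes ephrin-B2, best known as a marker of arteries and as a ligand of EPHB4. Its ratio, set to 1 at 50K, was 0.843 at 100K, 0.679 at 200K, 0.490 at 400K, 0.453 at 600K and finally 0.459 at 800K. The 3 densest arrays lay close together, all below 0.5. The slope was −0.31 ± 0.02 (adjusted p = 0.00120), the 278th steepest fall, and the call held with each array left out in turn (adjusted p up to 0.0104). The log2 ratio fell by 0.56 between 50K and 200K, by 0.47 between 200K and 400K and by 0.10 between 400K and 800K. Here too the first span holds more doublings than each of the others. Probe sets 202668_at and 202669_s_at stood at 0.476 and 0.442 at 800K.

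EFNB1, whose product ephrin-B1 binds EphB receptors, had a ratio of 1 at 50K, followed by 1.14 at 100K, 1.11 at 200K, 1.25 at 400K, 1.43 at 600K and finally 1.42 at 800K. EFNB1 rose with a slope of 0.12 ± 0.02 (adjusted p = 0.0104), and the 2 densest arrays were the highest. The call was lost without the 50K array (adjusted p = 0.0609).

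No member passed the test of curvature, which asks whether the change bends away from a line. The limma fit called 0 of 19775 genes (0%), of which 2496 had an unadjusted p under 0.05, among them 4 members. The largest quadratic term among the members was that of EFNA1, at 0.28 ± 0.05 (adjusted p = 0.166). That of EPHA2 was −0.18 ± 0.06 (adjusted p = 0.310) and that of EFNB2 0.03 ± 0.09 (adjusted p = 0.939).

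A two-sided exact permutation over all 720 orders of the 6 cell numbers was applied to the slope of each member. The smallest p it can give is 0.00139, which EPHB3 reached. For these 9 tests the exact p is given unadjusted. Because the members were chosen with earlier results of these data known, it serves as a description only. It was 0.00278 for EPHA2 and for EFNB2, 0.00417 for EFNA1, 0.0111 for EFNB1, 0.0181 for EPHB4 and 0.0528 for EPHA1, with 0.239 for EPHA4 and 0.763 for EFNA4.

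Ordered by slope, the members were EPHB3, EFNA1, EFNB1, EPHB4, EPHA1, EFNA4, EPHA4, EPHA2 and EFNB2. Neighbours in this order and 5 further pairs are described by the slope of their difference. All 13 pairs were chosen after the values were seen, and the order itself sets the sign between neighbours, so no test is given. The 95% intervals below describe the scatter round the fit and are not a test of a difference from 0. The largest gaps between neighbours were 0.29 ± 0.03 per doubling for EPHA4 minus EPHA2 and 0.27 ± 0.04 for EFNA1 minus EFNB1. EPHB3 minus EFNA1 came to 0.02, with a 95% interval from −0.04 to 0.08. EPHA2 minus EFNB2 came to 0.01 (95% interval from −0.12 to 0.14). In the remaining 4 neighbouring pairs the gap was between 0.02 and 0.06, with standard errors of 0.01 to 0.04.

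EFNA1 and EPHA2 moved in opposite directions. The log2 ratio of EFNA1 minus that of EPHA2 was 0 at 50K by construction, 0.33 at 100K, 0.90 at 200K, 1.69 at 400K, 2.30 at 600K and finally 2.77 at 800K. It widened on every array, and at 800K the ligand had gained 6.82-fold on the receptor relative to 50K. The slope of the difference was 0.70 ± 0.07 per doubling.

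EFNB2 moved in the direction opposite to EPHB3 and EPHB4. The log2 ratio of EFNB2 minus that of EPHB3 was −0.48 at 100K, −1.23 at 200K, −2.07 at 400K, −2.60 at 600K and finally −2.71 at 800K, with a slope of −0.72 ± 0.04. Against EPHB4 the slope of EFNB2 was −0.42 ± 0.04, and at 800K EPHB4 had gained 2.85-fold on EFNB2. EFNB1 fell behind EPHB3 by 0.29 ± 0.03 per doubling (slope of the difference −0.29). For EFNB2 minus EFNB1 the slope was −0.44 ± 0.03. The pairs share genes and arrays and are not independent of one another.

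**Figure D3:**
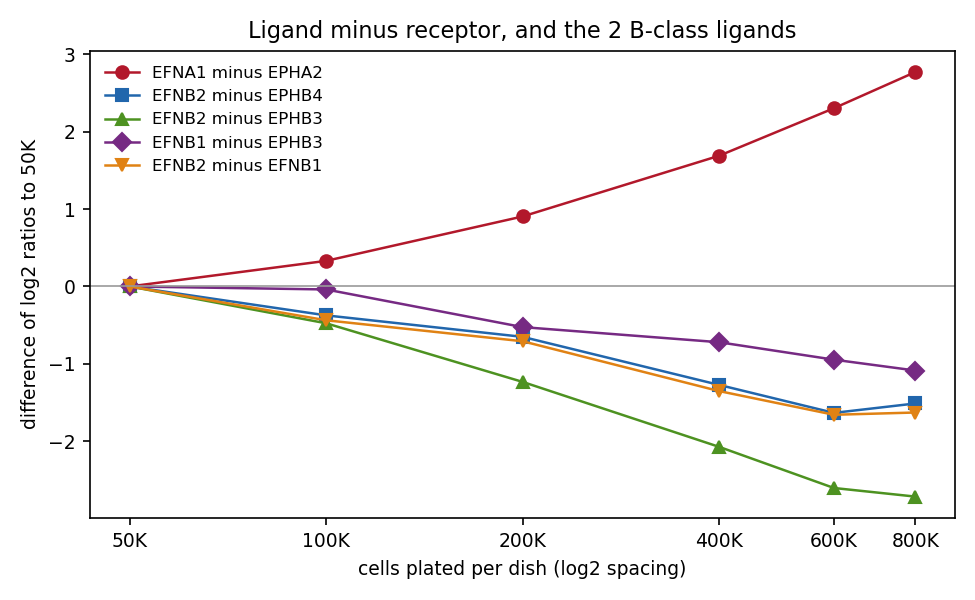
The difference between the log2 ratios of 2 members (vertical axis) is plotted against the cells plated per dish on a log2 spacing, with 1 array per point. EFNA1 minus EPHA2 climbs to 2.77 at 800K, while EFNB2 minus EPHB3 drops to −2.71 and EFNB2 minus EPHB4 to −1.51.

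The genes with the smallest root mean square difference from EPHB3 over the 5 arrays above 50K were KRT14, a keratin of basal epithelial cells (difference 0.07 log2 units, ratio 3.01 at 800K), TRIB2 (0.08, ratio 3.31) and TPD52L1 (0.09, ratio 2.99). EFNA1 was the 21st closest gene to EPHB3, at 0.15. The genes closest to EFNB2 were DMBT1 (0.08, ratio 0.463), the endocytic protein gene EHD1 (0.08, ratio 0.440) and PALS2, of a family of junctional scaffold proteins (0.08, ratio 0.452). EPHA2 was the 50th closest gene to EFNB2, at 0.17. These are descriptions over 5 points, all set against the same 50K array.

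Among the other 12 genes of the family, 2 rose, none fell and 10 did not pass the test, against 8.93% and 12.4% of all genes. Besides EFNA3, the gene that rose was EFNA5, an A-class ephrin, with a ratio of 1.29 at 800K and a slope of 0.10 ± 0.01 (adjusted p = 0.00675). Its 4 probe sets lay between 1.02 and 1.68 at 800K. Only 233814_at passed alone (adjusted p = 0.00898 over all probe sets), and 207301_at had a slope of 0.02 ± 0.02 (adjusted p = 0.722). For 5 genes, EPHA5, EPHA6, EPHA7, EPHA10 and EPHB1, the ratios kept between 0.974 and 1.09 on all arrays. EPHA3 reached 1.12 at 200K and EFNA2 1.15 at 100K, and both were at 1.07 or less at 800K. The largest slopes of genes that did not pass were those of EFNB3 (0.12 ± 0.06, adjusted p = 0.192), with a ratio of 1.57 at 600K, and of EPHB6, a receptor without kinase activity (0.10 ± 0.08, adjusted p = 0.455), whose ratio was 0.694 at 200K and 1.35 at 600K. EPHA8 had ratios between 1.16 and 1.23 on the arrays above 50K (adjusted p = 0.0974). EPHA2-AS1, named in RefSeq as antisense to EPHA2, stood at 1.60 on the 100K array and between 1.01 and 1.07 on the others above 50K.

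**Figure D4:**
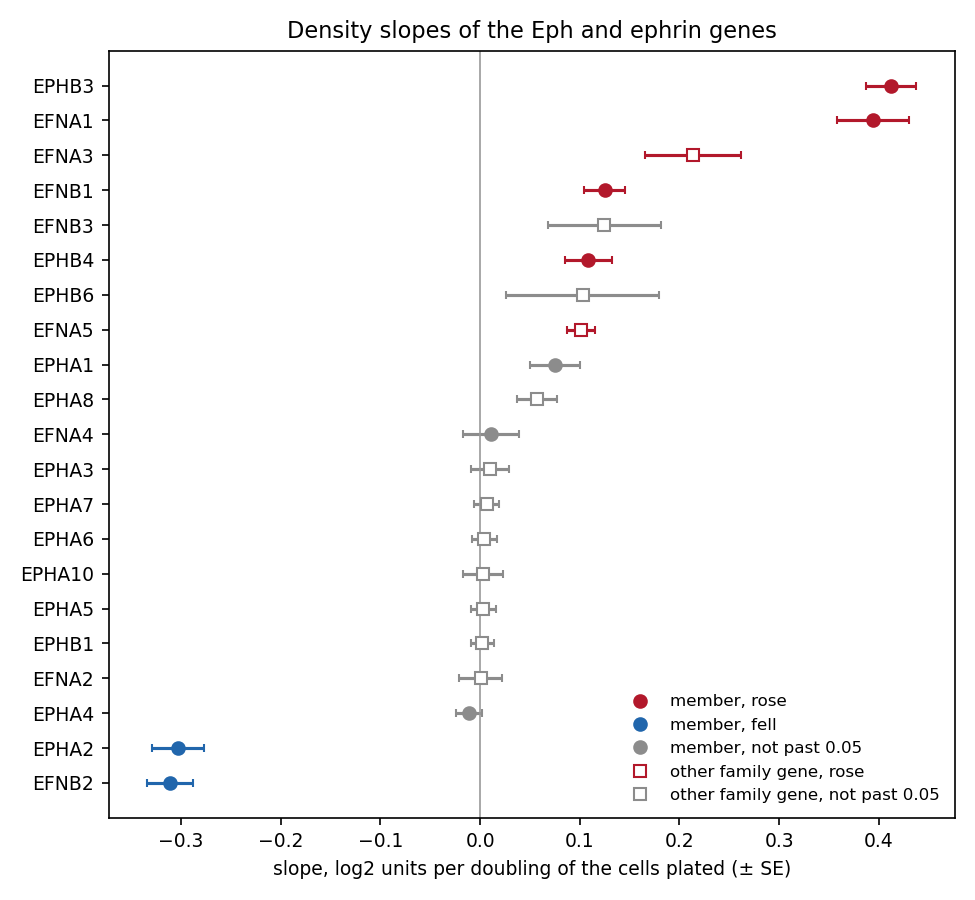
Density slopes (log2 units per doubling of the cells plated, ± SE, 6 arrays) of the 9 members (circles) and 12 other family genes (squares), ordered by slope, with calls at an adjusted p of 0.05 in colour. EPHB3 and EFNA1 lie at 0.41 and 0.39, EPHA2 and EFNB2 at −0.30 and −0.31, and EFNA3 leads the other family genes at 0.21.

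Partners of Eph signalling were counted in 4 lists, of which 83 of 90 genes were measured. The lists were chosen with earlier results of these data known, so their counts are descriptions and not a test of Eph signalling. Of these 83, 22 rose and 15 fell, against 8.93% and 12.4% of all genes, and the median slope was 0.01, against 0.00 for all genes. The number that rose was 14 without 100K and 13 without either 600K or 800K, and the number that fell was 8 without 600K and 9 without 800K. Without probe sets with the suffixes _x_at and _s_at, 10 rose and 6 fell. That setting held 17098 of the 19775 genes. Partners with only such probe sets, among them GRB7, PTPN13, SDCBP, MMP9 and CDH1, gave no value there, so these counts are of fewer than 83. Of all genes, 6.51% rose without 100K, 5.28% rose and 7.09% fell without 600K, 5.19% rose and 6.89% fell without 800K, and 6.77% rose and 8.81% fell without those probe sets. Of 36 measured effectors of forward signalling, 9 rose (8.93% of all genes), 7 fell (12.4% of all genes) and 20 did not pass, with a median slope of 0.01. The steepest were VAV3, a guanine nucleotide exchange factor that binds activated Eph receptors, with a slope of 0.46 ± 0.03 and a ratio of 3.79 at 800K, and the adaptor gene GRB7, with a slope of 0.40 ± 0.02 and a ratio of 3.25. They were followed by PIK3R1, the regulatory subunit of PI3-kinase (0.29 ± 0.04), and the exchange factor gene ARHGEF5 (0.26 ± 0.03). Their adjusted p ranged from 0.000683 to 0.0059. With the 3 highest set against the 3 lowest densities, the calls of VAV3 and GRB7 were lost (adjusted p 0.0677 and 0.0598). Among the 7 that fell, ABL2 had the steepest slope (−0.19 ± 0.02), and VAV2 had one of −0.08 ± 0.02 (adjusted p = 0.0450).

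Of 14 genes of reverse signalling and of PDZ proteins that bind the tails of ephrin-B or Eph receptors, 5 rose and none fell, against 8.93% and 12.4% of all genes, with a median slope of 0.02. PTPN13, a phosphatase with PDZ domains that acts on ephrin-B, had a slope of 0.35 ± 0.05 and a ratio of 2.29 at 800K. The scaffold gene GRIP1 had a slope of 0.28 ± 0.02 (ratio 2.13) and SDCBP, which encodes syntenin, one of 0.17 ± 0.03 (ratio 1.59). RGS3, a regulator of G protein signalling that binds ephrin-B, had a slope of 0.12 ± 0.03 (adjusted p = 0.0473). The call of RGS3 was lost with any 1 array left out (adjusted p 0.0505 to 0.134), and its slope was 0.00 with the median of its probe sets. That of SDCBP was lost without 100K or 800K (adjusted p 0.0510 and 0.0544), and that of GRIP1 with the 3 highest set against the 3 lowest densities (adjusted p 0.0573).

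Of 23 measured genes of receptor shutdown, cleavage and turnover, 4 rose and 6 fell, against 8.93% and 12.4% of all genes, with a median slope of 0.00. MMP9, a gelatinase, fell with a slope of −0.41 ± 0.06, the receptor phosphatase gene PTPRF with −0.31 ± 0.03 (ratio 0.469 at 800K) and CBL, a ubiquitin ligase that acts on activated receptor kinases, with −0.15 ± 0.01 (ratio 0.691). PSENEN, a subunit of gamma-secretase, fell with −0.14 ± 0.03 (ratio 0.701). The 4 that rose had smaller slopes than these 4: CBLB (0.11 ± 0.02), RHBDL2 (0.10 ± 0.02), ADAM17 (0.09 ± 0.01) and ADAM10 (0.08 ± 0.02). PTPN1 and PTPN11 also fell, each with a slope of −0.09 ± 0.02, smaller in size than those of CBLB and RHBDL2. Without the 50K array the calls of MMP9 and PSENEN were lost (adjusted p 0.0708 and 0.131), and without 100K that of PSENEN was (0.0600). Between the 3 highest and the 3 lowest densities both were lost (adjusted p 0.120 and 0.0878). The call of PTPRF was lost without _x_at and _s_at probe sets (slope −0.23, adjusted p 0.0670). Of 10 measured genes whose products are known to act with EPHA2 at contacts or in signalling, 4 rose and 2 fell, beside 8.93% and 12.4% over all genes, with a median slope of 0.03. CLDN1 (0.31 ± 0.04) and CLDN4 (0.24 ± 0.05), claudins of tight junctions, and CDH1, the epithelial cadherin (0.21 ± 0.02, ratio 1.74 at 800K), rose, and caveolin CAV1 fell (−0.18 ± 0.03, ratio 0.631). The call of CLDN4 was lost without 50K, 100K or 600K (adjusted p up to 0.158). With the 3 highest set against the 3 lowest densities, the calls of CDH1 and CLDN4 were lost (adjusted p 0.0683 and 0.157).

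**Figure D5:**
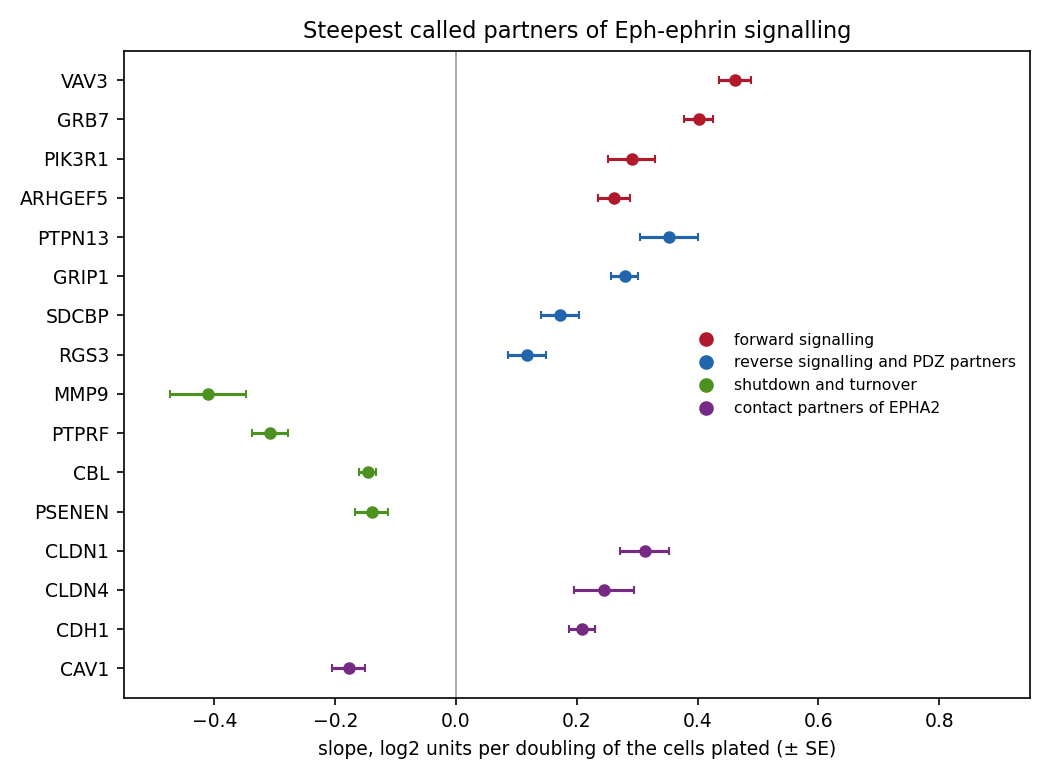
Density slopes (log2 units per doubling of the cells plated, ± SE, 6 arrays) of the 4 steepest called genes of each of 4 partner lists, coloured by list. VAV3 has the largest rise at 0.46 and MMP9 the largest fall at −0.41.

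Of marker lists of other cell types, 2 of 9 endothelial, 1 of 8 fibroblast and 1 of 5 measured leukocyte markers rose and none fell. Of 7 measured markers of basal breast epithelium, 4 rose and 1 fell. Over all genes the shares were 8.93% and 12.4%. Ratios do not show whether any of these genes is expressed, and the part of other cells in the values of EFNB2 and EPHB4, which also mark vessels, was not tested.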

How the data were processed

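Total RNA of MCF10A cells was hybridised as biotin-labelled target, from 200 ng of input, to 6 Affymetrix arrays. RMA, which corrects background and normalizes between arrays, is named by the submitters' processing notes with no version. Each value deposited by the authors is a linear ratio with the same probe set's 50K value below the line: the 50K column holds 54675 values, all at 1 within a tolerance of 1e-06. The sources used here do not say how that division was made. Signal over background is unknown, and precision is limited by having 6 arrays.

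Of the probe sets, 41091 carried 1 symbol in the platform annotation and gave 19775 genes as mean log2 ratios, with no filter and no pseudocount. Slopes and quadratic terms come from limma 3.58.1 (R 4.3.3), without a mean-variance trend, with 4 and 3 residual degrees of freedom. The scatter around a line mixes dishes, technical noise and departures from it. The slope and curvature fits were run on simulated data with independent normal scatter for each gene. Such data hold no error shared by the genes of an array, and the outcome is not given here. The members and lists were chosen with earlier results of these data known. The exact p-values of the members are therefore descriptions, and they are given unadjusted. All members and other family genes are named, with up to 4 steepest called genes per list and the 3 genes closest in pattern to the steepest riser and faller. The other called genes in the list of shutdown, cleavage and turnover are named too, without the alternatives. So are ABL2 and VAV2, which fell in the list of forward signalling. The pairs of members were chosen after the values were seen and are given without a test. Promoter windows of all 9 members were found in RefSeq. Alternatives were other probe set rules, median centring, other scales of cell number, robust variances, the 3 highest against the 3 lowest densities, and leaving out each array.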

Additional observations from a re-analysis of the deposited data

How the results depend on the processing

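No paired analysis was possible because each density has 1 array. EPHB3, EFNA1, EPHA2 and EFNB2 kept their direction and their call under all alternatives run for them, and no slope of a member that was called turned round. EPHB4 was lost between the 3 highest and the 3 lowest densities (difference 0.30 log2 units, adjusted p = 0.0547), and with arrays left out its slope lay between 0.0889 and 0.119. Its probe set 216680_s_at alone gave a slope of 0.0667, and 205977_s_at of EPHA1 alone gave 0.195. The slope of EFNB1 lay between 0.114 and 0.135 and that of EPHA1 between 0.0395 and 0.0983 with arrays left out. The number of members that rose was between 2 (without 50K) and 5 (without 200K), and the number that fell was 2 under every alternative run. Of all genes, 6.56% rose without 50K and 8.23% without 200K. The share of all genes that fell was between 6.83% and 13.2% over the alternatives. The count of all genes with a slope was 4220, and 2664 without probe sets with the suffixes _x_at and _s_at, 2259 between the 3 highest and the 3 lowest densities and 2388 to 3909 with arrays left out. Partners that rose numbered 22, and 10 without those probe sets and 13 to 18 with arrays left out. Partners that fell numbered 15, and 6 without those probe sets and 8 to 15 with arrays left out. Of all genes, 6.77% rose and 8.81% fell without those probe sets. With arrays left out, 5.19% to 8.23% of all genes rose and 6.89% to 11.5% fell. Between the 3 highest and the 3 lowest densities, the calls of EFNA3, GRIP1, CDH1, CLDN4, MMP9 and PSENEN were lost too (adjusted p 0.0573 to 0.157), those of CLDN4, MMP9 and PSENEN also with the untransformed cell number, and that of PTPRF without those probe sets (0.067). EFNA4 has only such a probe set and gave no value there, and the same holds for some partners, among them GRB7, PTPN13, SDCBP, MMP9 and CDH1. The causes were not tested. The curvature count was 0 under all 11 alternatives run.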
